A study of Mus musculus with 40 samples.

Results

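The transcription factors that carry a precursor cell into the adipocyte state were followed in gonadal fat pads taken at 9 weeks of age from 40 males of the inbred C57BL/6J strain, measured with 1 Illumina MouseRef-8 bead array per animal. The genes were chosen by name (Pparg, Cebpa, Cebpb, Cebpd, Rxra, Ebf1, Ebf2, Klf15, Zfp423 and Nr2f2), and every probe that the platform annotation pairs with them was used. Of these 10 genes 9 had a probe, 15 probes of 25697 on the array, and Cebpd was not analysed here. A probe was tested when it was above the background of the array on at least 20 of the 40 arrays, which 14 of the 15 member probes and 14248 probes in all passed. The member probe that did not pass, Nr2f2 ILMN_2617297, was above background on 0 of 40 arrays.

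All animals were wild type, and the groups of 10 differed in diet, with the maternal diet written before the diet of the offspring. HH animals were born from dams fed a high fat (HF) diet and were fed HF themselves after weaning. LH animals had dams fed a low fat (LF) diet and were fed HF, HL animals had HF dams and were fed LF, and LL animals had LF dams and were fed LF. Dams were on their diet before and through pregnancy and until weaning, and coconut oil was the main source of fat. The mice came from 12 cages of dams, 6 of them on each diet, so littermates are not independent samples of a maternal diet. Values are intensity units on a linear scale without background subtraction, a difference is given on the log2 scale with its standard error (SE), and the fold of a dim probe is understated.

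PPARG is the nuclear receptor without which adipocytes do not form, and it binds DNA as a pair with RXRA. During differentiation of cultured mouse preadipocytes CEBPB and CEBPD appear early and switch on Pparg and Cebpa, which then maintain each other and bind near most genes of the mature fat cell. EBF1 and EBF2 act in precursor commitment, EBF2 also in brown and beige fat, ZFP423 marks committed preadipocytes and restrains the thermogenic programme, and KLF15 raises the insulin-regulated glucose transporter. NR2F2 (COUP-TFII) is an orphan nuclear receptor of precursor, venous and smooth muscle cells that holds back Pparg and Cebpa in cultured preadipocytes.

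The adipocyte markers Adipoq, Plin1, Cidec, Lipe, Fabp4 and Lpl (6 of 7 listed) were on the array and all above background. On 5 arrays, HL animals 2, 6 and 8 and LL animals 1 and 4, the mean correlation with the other arrays was below 0.926, and all 5 belonged to LF fed animals. Their mean log2 intensity of the adipocyte list was between 10.5 and 11.0, against 11.6 to 12.5 on the other HL and LL arrays. Testis genes (Prm1, Tnp1, Tnp2, Odf1, Akap4 and Ldhc, 6 of 7 listed) had a mean log2 intensity of 9.06 to 13.4 there, against 6.28 to 9.59 on the other HL and LL arrays, and genes of the epididymis and seminal vesicle (7 of 8 on the array) had 9.04 to 12.1, against 6.24 to 7.62. HL animal 8 also had a mean log2 intensity of 10.8 for the intestine genes Sis, Fabp2 and Vil1 (3 of 5 on the array, none above background on enough arrays to be tested), against 5.88 to 6.72 on every other array. These 5 are called low-correlation arrays below. Arrays of HF fed animals also held such transcripts, with testis means of up to 11.0 (LH animal 5) and epididymis means of up to 9.03 (HH animal 3). In a bulk tissue, fewer cells of a type and less RNA per cell cannot be told apart.

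The spread of the members in the LF fed groups lay largely on these arrays. Pparg ILMN_1221060 read 798 to 1361 units on the 3 low-correlation HL arrays and 2733 to 4113 on the other 7 HL arrays. On the 2 low-correlation LL arrays it read 949 and 1504 units, and on the other 8 LL arrays 3079 to 4335. Cebpa stood at 189 to 271 units on the 3 low-correlation HL arrays, against 524 to 1178 on the other 7, and at 199.5 and 338 on the 2 low-correlation LL arrays, against 645 to 1024 on the other 8. The other Pparg probes, Ebf1, both Ebf2 probes and Klf15 were likewise below every other array of their group, with no overlap in HL or in LL. These arrays were set apart by their correlation over all tested probes. The share of all probes without overlap was not computed, so this separation cannot be called particular to the members. Cebpb, Rxra, Zfp423 and Nr2f2 overlapped: Cebpb read 1012 to 1815 units on the 3 HL arrays, against 1286 to 2065 on the other 7. Zfp423 ILMN_3131693 was highest of all arrays on LL animal 4, at 307 units. The part of the testis and epididymis transcripts in these values was not tested.

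**Figure D1:**
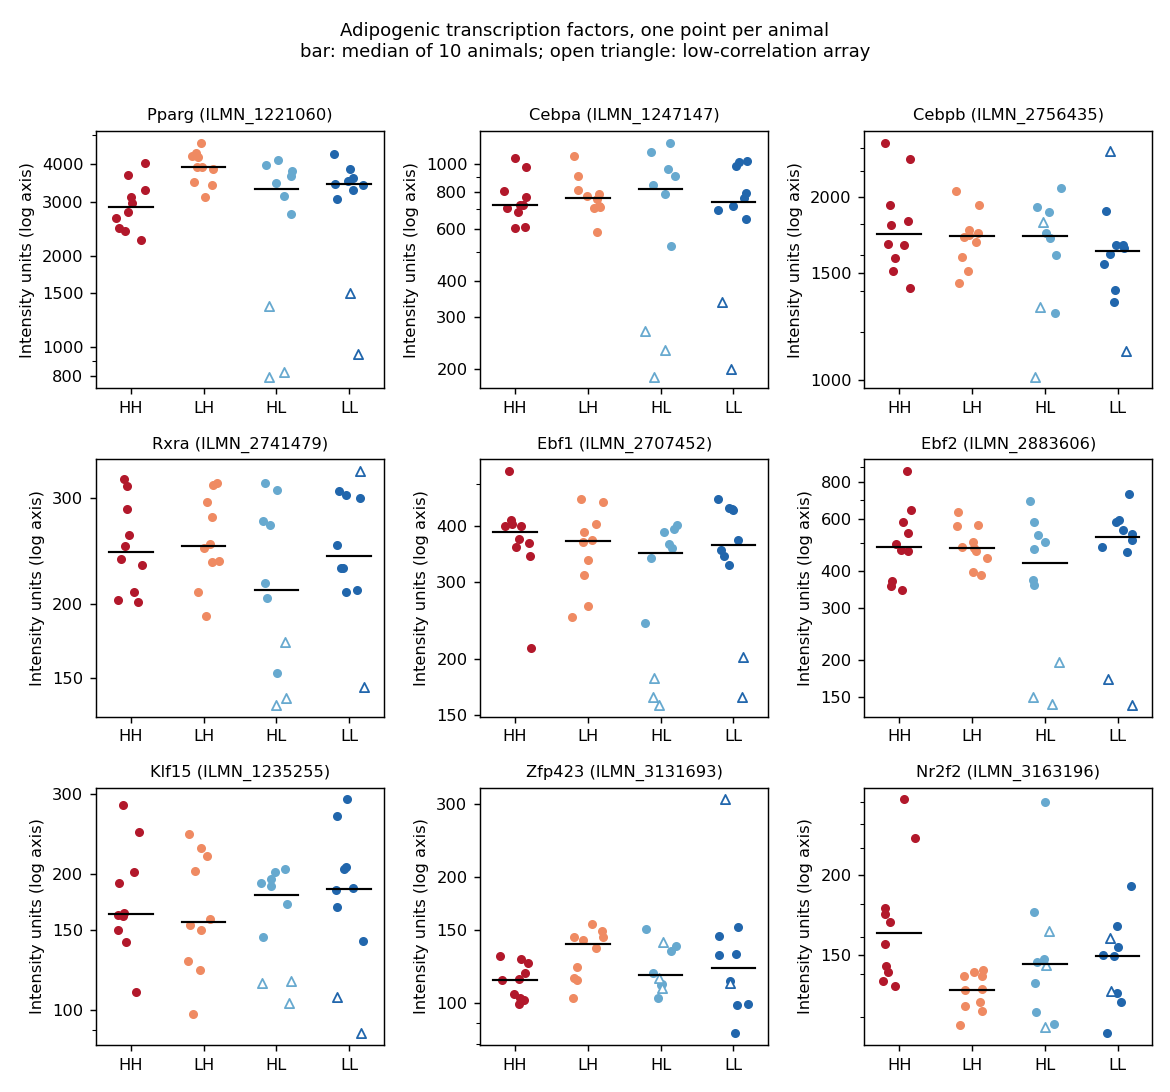
Intensity of the brightest probe of each measured gene, in units on a log axis, with 1 point per animal for HH, LH, HL and LL and a bar at the median of 10 animals. Open triangles are the 5 low-correlation arrays, which for Pparg lie between 798 and 1504 units, under the other arrays of HL and LL.

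No member passed an adjusted p of 0.05 (limma, Benjamini-Hochberg over 14248 probes) in any of 7 comparisons. When the offspring were fed HF, the difference by maternal diet was tested between HH and LH, which hold none of the low-correlation arrays. In that comparison 0 of 14 member probes were called, and 0% of all probes. At an unadjusted p under 0.05 it had 4 of 14 member probes, Pparg ILMN_1221060, Pparg ILMN_1221893 and Zfp423 ILMN_3131693 lower and Nr2f2 ILMN_3163196 higher in HH, against 12.5% of all probes. The median difference of the 14 member probes was -0.04, and that of all probes -0.02.

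Pparg ILMN_1221060, the brightest probe of the gene, read 2249, 2883 and 4046 units in HH (lowest, median and highest) and 3124, 3913 and 4708 in LH. HH was below the LH median in 9 of 10 animals and below the lowest LH animal in 6 of 10, and the groups overlapped. The difference was -0.42 ± 0.10 (SE), with a 95% interval of -0.63 to -0.21, p = 0.000424 and an adjusted p of 0.112 by limma. Pparg ILMN_1221893 read 261, 455 and 737 units in HH and 477, 564 and 835 in LH, a difference of -0.45 ± 0.18 with an adjusted p of 0.310 by limma. Pparg ILMN_1221594 did not follow them: it read 708, 1422 and 2070.2 units in HH and 996, 1371 and 2344 in LH, with a difference of -0.07 ± 0.20 and a 95% interval of -0.48 to 0.34. The annotation gives the same transcript record to all 3 probes.

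Nr2f2 ILMN_3163196 lay in the opposite direction. It read 134, 162 and 263 units in HH and 117, 132 and 142 in LH, and all 10 HH animals were above the LH median, 7 of them above the highest LH animal. The difference was 0.36 ± 0.10, with a 95% interval of 0.14 to 0.57, p = 0.00256 and an adjusted p of 0.173 by limma. The dimmer probe Nr2f2 ILMN_3076625, above background on 26 of 40 arrays, read 78.7, 104 and 229 units in HH and 74.7, 84.2 and 143 in LH, with a difference of 0.22 ± 0.16. The 2 highest HH animals at ILMN_3163196 were animal 7 with 263 units and animal 3 with 228. In animal 7 the smooth muscle and pericyte genes of the mural cell list (Rgs5, Acta2, Cspg4, Myh11 and Tagln, 5 of 5 above background) had a mean log2 intensity of 10.3, against 8.30 to 9.04 in the other HH animals and 8.28 to 8.97 in LH animals. In animal 3 the skeletal muscle list (6 genes, 2 of them above background) had 10.9, and in animal 10 it had 13.5, against 6.39 to 9.31 in the other HH animals and 6.52 to 9.33 in LH animals. The 3 HH animals of cage 21, animal 10 among them, read 143.8 to 173.5 units of ILMN_3163196, around the HH median of 162.

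Without HH animals 3, 7 and 10, a choice made after the values were seen, the difference in Pparg ILMN_1221060 was -0.31 ± 0.10 and that in Nr2f2 ILMN_3163196 was 0.23 ± 0.07, with adjusted p-values of 0.308 and 0.304 by limma. Pparg ILMN_1221893 was then at -0.23 ± 0.17 and Nr2f2 ILMN_3076625 at -0.0016 ± 0.12. The part of muscle transcripts in the rest was not tested.

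The brightest Pparg probe and Nr2f2 ILMN_3163196 were also the only members of 14 probes whose cage means did not overlap between HH and LH, which held for 3.25% of all probes. For Pparg ILMN_1221060 the 4 HH cages averaged 2481, 3102, 3128 and 3266 units, and the 4 LH cages 3271, 4030, 4048 and 4186. The highest HH cage and the lowest LH cage were thus 3266 and 3271 units. For Nr2f2 ILMN_3163196 the HH cages averaged 158, 168, 168 and 191 units, and the LH cages 130.3, 131, 133 and 133. With cage means as the samples, the differences were -0.38 for Pparg ILMN_1221060 and 0.36 for Nr2f2 ILMN_3163196, both with an adjusted p of 0.788 by limma. Leaving out each cage in turn gave -0.48 to -0.32 for Pparg, and without LH cage 14, where the value was -0.48, it passed the test (adjusted p = 0.0398 by limma). Without that cage 116 of 14248 probes were called, against 0 with all cages.

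**Figure D2:**
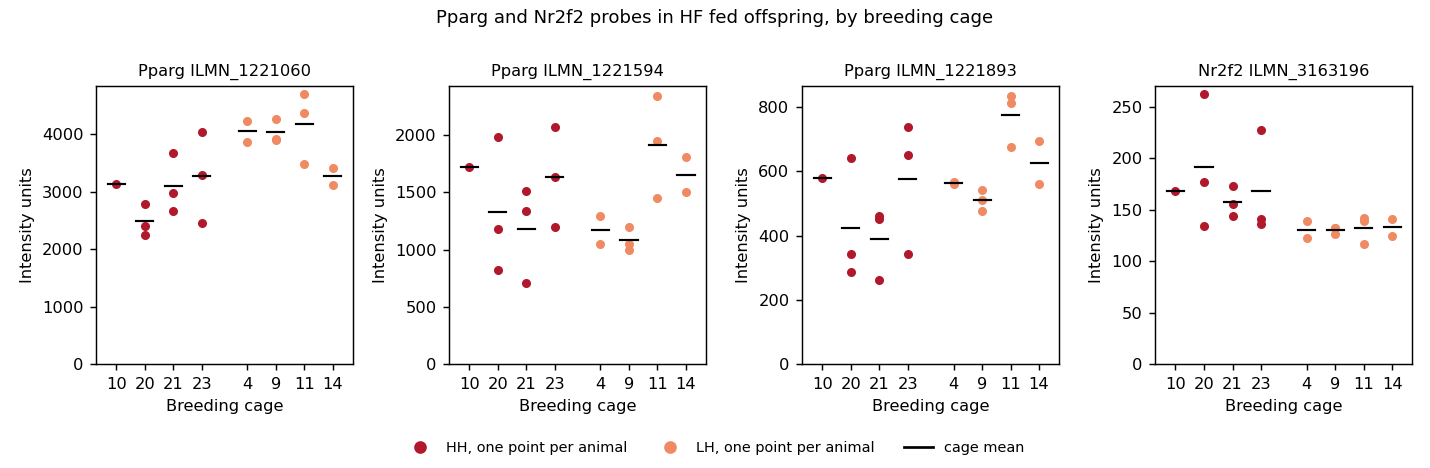
Intensity units of the 3 Pparg probes and Nr2f2 ILMN_3163196 by breeding cage, with HH cages left of LH cages, 1 point per animal and a line at each cage mean. The cage means of Pparg ILMN_1221060 reach 3266 units in HH and start at 3271 in LH, and those of Nr2f2 ILMN_3163196 are 158 to 191 in HH, above the LH cages at 130.3 to 133.

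The 3 annotated start regions of Pparg are shown, with those of Nr2f2, which lay in the opposite direction, and of Cebpa, the partner of Pparg in the mature adipocyte. No probe was assigned to a start. Each sequence is the 250 bases before an annotated start, 5′ to 3′ on the strand of the gene, from RefSeq (build GRCm38.p6), where 8 of the 10 genes had an entry and Ebf2 and Cebpd had none. Capitals mark matches, on either strand, to the C/EBP consensus TTGCNNAA, the nuclear receptor core AGGTCA, the EBF core CCCNNGGG, the GC box GGGCGG, the E-box CACGTG, the CCAAT box CCAAT and the TATA box TATAAA.
Pparg start 1, chr6:115360894-115361143, plus strand: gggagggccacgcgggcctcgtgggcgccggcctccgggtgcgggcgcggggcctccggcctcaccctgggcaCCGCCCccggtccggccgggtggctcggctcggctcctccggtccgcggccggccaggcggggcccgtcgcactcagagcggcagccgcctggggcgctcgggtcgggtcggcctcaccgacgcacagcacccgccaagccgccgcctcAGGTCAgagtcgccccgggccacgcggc
Pparg start 2, chr6:115362099-115362348, plus strand: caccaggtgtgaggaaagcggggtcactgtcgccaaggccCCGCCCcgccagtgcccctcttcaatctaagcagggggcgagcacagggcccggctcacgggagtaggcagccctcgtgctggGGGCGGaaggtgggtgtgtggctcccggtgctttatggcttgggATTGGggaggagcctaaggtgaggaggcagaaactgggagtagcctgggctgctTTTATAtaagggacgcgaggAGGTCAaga
Pparg start 3, chr6:115421816-115422065, plus strand: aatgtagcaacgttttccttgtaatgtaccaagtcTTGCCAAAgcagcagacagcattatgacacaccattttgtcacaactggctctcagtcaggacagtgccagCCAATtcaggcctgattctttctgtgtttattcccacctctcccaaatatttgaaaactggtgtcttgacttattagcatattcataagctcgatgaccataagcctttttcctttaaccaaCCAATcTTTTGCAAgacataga
Cebpa, chr7:35119043-35119292, plus strand: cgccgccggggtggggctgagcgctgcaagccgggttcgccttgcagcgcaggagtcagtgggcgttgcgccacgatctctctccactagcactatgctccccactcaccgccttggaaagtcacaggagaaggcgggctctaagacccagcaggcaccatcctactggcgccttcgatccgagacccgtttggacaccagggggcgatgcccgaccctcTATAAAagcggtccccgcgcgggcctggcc
Nr2f2, chr7:70366747-70366996, minus strand: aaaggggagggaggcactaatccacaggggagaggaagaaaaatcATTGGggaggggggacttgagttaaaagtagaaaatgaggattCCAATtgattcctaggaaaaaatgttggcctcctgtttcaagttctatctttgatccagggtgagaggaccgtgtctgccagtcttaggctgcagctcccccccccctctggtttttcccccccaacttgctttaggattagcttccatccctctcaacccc

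The 3 Pparg windows differed in composition, with 82.4%, 63.6% and 40.8% of G and C. Pparg start 3 held 2 matches to the C/EBP consensus, the first bases of which lay at -215 and -16 from the start, and 2 CCAAT boxes at -144 and -22. Starts 1 and 2 each held a nuclear receptor core, at -28 and -9, and GC boxes, 1 in start 1 at -177 and 2 in start 2 at -210 and -127. Start 2 also held a CCAAT box at -83 and a TATA box at -29, and Cebpa held a TATA box at -30 and no other match. Nr2f2 held CCAAT boxes at -205 and -162. Of 32851 such windows of all genes, 9.56% held the C/EBP consensus, 14% the nuclear receptor core, 11.8% the EBF core, 32.7% the GC box, 6.02% the E-box, 33.8% the CCAAT box and 12.4% the TATA box. Among the 13 windows of members 2 held the C/EBP consensus (Pparg start 3 and a start of Zfp423) and 4 the nuclear receptor core. The direct repeat of that core with a spacer of 1 base that PPARG and RXRA bind (DR1) was in none of the 13, and in 0.0335% of all windows. A match describes the letters only, and the arrays did not measure which start was used.

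The preadipocyte factor Zfp423 did not pass the test. Its probe ILMN_3131693 read 99.7, 114 and 129.6 units in HH and 103, 139 and 155 in LH, so that all 10 HH animals were below the LH median while the groups overlapped. The difference was -0.21 ± 0.08 with an adjusted p of 0.273 by limma, and the second probe, ILMN_2469366, above background on 33 of 40 arrays, differed by -0.16 ± 0.10. Cebpa read 602, 722 and 1042 units in HH and 586, 764 and 1063 in LH, with a difference of -0.04 ± 0.11. For Cebpb the difference was 0.07 ± 0.09, for Rxra -0.04 ± 0.11, for Ebf1 0.07 ± 0.14 and for Klf15 0.10 ± 0.18, and the 2 Ebf2 probes gave 0.02 ± 0.14 and -0.09 ± 0.13. For these genes the 95% intervals reached at most 0.46 in either direction.

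When the offspring were fed LF, HL was compared with LL, and 0 of 14 member probes were called, with 0% of all probes. At an unadjusted p under 0.05 there were 0 of 14 member probes and 1.08% of all probes. Pparg ILMN_1221060 read 798, 3312 and 4113 units in HL and 949, 3434 and 4335 in LL, with a difference of -0.26 ± 0.35. Without the low-correlation arrays (7 HL and 8 LL animals) the difference was -0.01 ± 0.09 with a 95% interval of -0.20 to 0.18. Nr2f2 ILMN_3163196 read 115, 145 and 260.1 units in HL and 113, 149.5 and 192 in LL, with differences of 0.03 ± 0.13 with all arrays and 0.06 ± 0.15 without those arrays. Its highest HL animal, animal 5, had a mural cell mean of 9.93 on the log2 scale, against 8.61 to 9.91 in the other HL animals. HL animal 8, with the mean of 9.91, read 144 units of this probe, near the HL median. Over the 14 member probes the differences were between -0.41 and 0.08, 11 of them below 0, and without the low-correlation arrays between -0.26 and 0.14, 8 of them below 0.

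The diet after weaning was compared among offspring of HF dams (HH against HL) and of LF dams (LH against LL). In HH against HL 0 of 14 member probes were called, against 0.512% of all probes, and 0 of 14 had an unadjusted p under 0.05, against 16.9% of all probes. In LH against LL 0 of 14 were called, against 0.218% of all probes, and 1 of 14 had an unadjusted p under 0.05, against 12.8%. That probe was Pparg ILMN_1221060, which read 3124, 3913 and 4708 units in LH and 949, 3434 and 4335 in LL, a difference of 0.45 ± 0.21 with an adjusted p of 0.386 by limma. Without LL animals 1 and 4 it was 0.13 ± 0.08, with a 95% interval of -0.03 to 0.30.

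Member differences by post-weaning diet were mostly above 0 with all arrays, 11 of 14 probes in HH against HL and 10 of 14 in LH against LL, with medians of 0.24 and 0.08, against 0.02 and 0.03 for all probes. Without the low-correlation arrays 5 of 14 and 7 of 14 were above 0, with medians of -0.06 and -0.03. In HH against HL Pparg ILMN_1221060 read 2249, 2883 and 4046 units in HH and 798, 3312 and 4113 in HL, a difference of 0.29 ± 0.29. Without HL animals 2, 6 and 8 it was -0.27 ± 0.12, with an unadjusted p of 0.0309 and an adjusted p of 0.350 by limma. Cebpa gave 0.37 ± 0.31 with all arrays and -0.22 ± 0.15 without those of HL. Ebf1 gave 0.41 ± 0.20 with all arrays (p = 0.0512 by limma) and 0.09 ± 0.14 without them, and Ebf2 ILMN_2883606 gave 0.50 ± 0.28 and 0.01 ± 0.18. The direction of Pparg and Cebpa in HH against HL thus turned with 3 arrays of HL. Within the 3 cages that hold both HH and HL animals (cage as a fixed block, 7 HH and 6 HL arrays), the differences were 0.87 ± 0.37 for Pparg ILMN_1221060, 1.32 ± 0.42 for Pparg ILMN_1221594, 0.92 ± 0.42 for Cebpa, 0.80 ± 0.25 for Ebf1 and 1.04 ± 0.38 for Ebf2 ILMN_2883606, none of them called. These cages hold all 3 low-correlation HL arrays, and without those arrays no block value was computed. With cage means as the samples Pparg ILMN_1221060 was at 0.44.

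**Figure D3:**
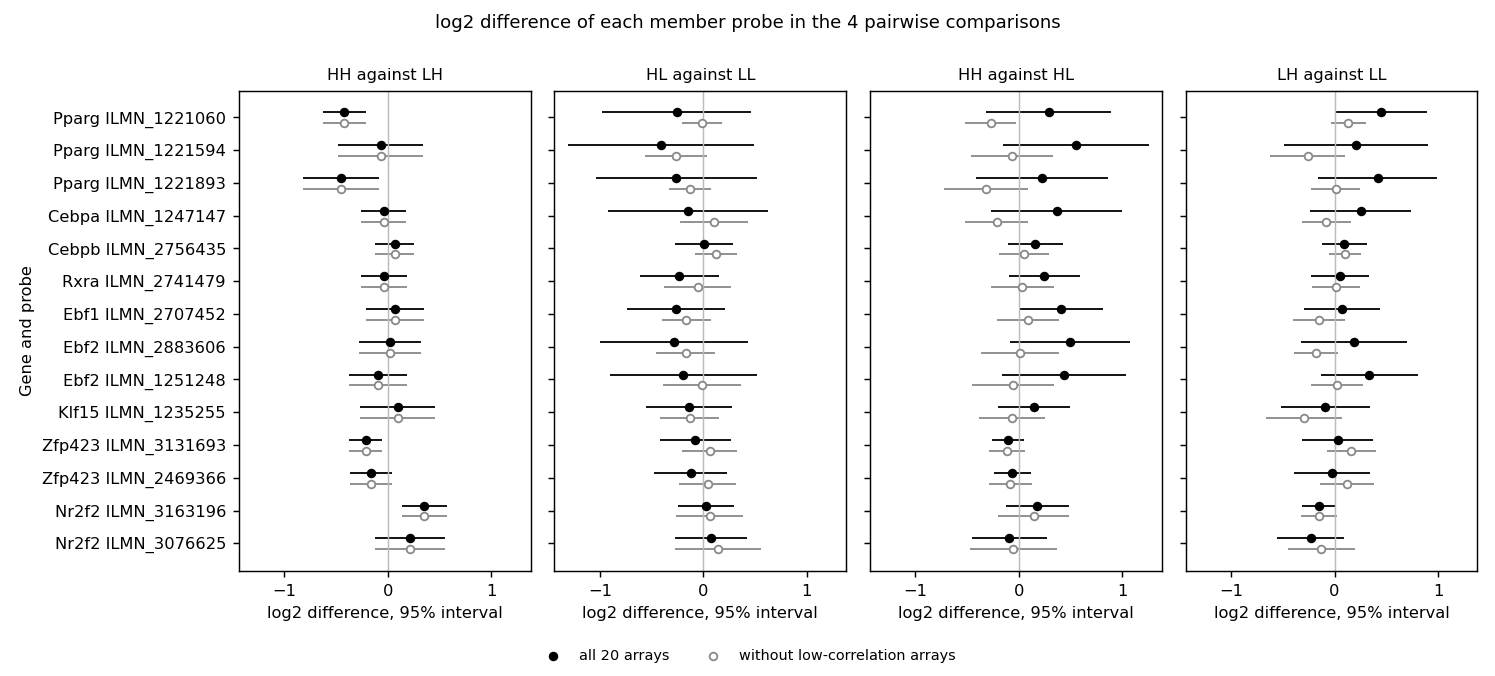
log2 difference and 95% interval of the 14 tested member probes in HH against LH, HL against LL, HH against HL and LH against LL, with filled points for all 20 arrays and open points without the low-correlation arrays. HH against LH holds none of them, so its points coincide, and in HH against HL the point of Pparg ILMN_1221060 lies at 0.29 with all arrays and at -0.27 without 3 of them.

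Averaged over dams, the post-weaning comparison (HF fed against LF fed, 20 animals each) called 0 of 14 member probes, against 5.39% of all probes. Only Ebf2 ILMN_1251248 had an unadjusted p under 0.05, 1 of 14, against 24.3% of all probes, with a difference of 0.39 ± 0.19 and an adjusted p of 0.198 by limma. Without the low-correlation arrays it was -0.02 ± 0.11, and within the 5 cages that hold both offspring diets (23 arrays) 0.68 ± 0.27, not called. Averaged over offspring diets, the maternal comparison (HF dams against LF dams) called 0 of 14 member probes and 0% of all probes. There Nr2f2 ILMN_3163196 was the 1 probe of 14 with an unadjusted p under 0.05, against 3.46% of all probes, with a difference of 0.19 ± 0.08. Without the low-correlation arrays it was 0.21 ± 0.09, and Pparg ILMN_1221060 was at -0.21 ± 0.07 and Pparg ILMN_1221893 at -0.29 ± 0.11, with adjusted p-values of 0.977, 0.849 and 0.939 by limma.

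The interaction, the post-weaning difference in offspring of HF dams minus that in offspring of LF dams, called 0 of 14 member probes and 0% of all probes, and 0 of 14 had an unadjusted p under 0.05, against 4.36% of all probes. For Nr2f2 ILMN_3163196 it was 0.33 ± 0.17 with p = 0.0554, and for Pparg ILMN_1221060 -0.16 ± 0.37, both by limma. Without the low-correlation arrays the value for Pparg ILMN_1221060 was -0.41 ± 0.14, with an unadjusted p of 0.00691 and an adjusted p of 0.390 by limma. The difference between the maternal effects in HF fed and in LF fed animals was thus not past the test for either gene.

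Other factors and targets of the same network were read from lists. Of 20 further pro-adipogenic factors 17 were tested, and in HH against LH 0 were called, with 3 lower (Srebf1, Mlxipl and Nr1h3) and 1 higher (Klf4) at an unadjusted p under 0.05. Of all probes 12.5% were past that p in this comparison, 9.72% lower and 2.74% higher in HH, which is the background of each count in these lists. Srebf1, the sterol and lipogenic regulator, differed by -0.55 ± 0.12 (adjusted p = 0.0907 by limma) and Mlxipl, the glucose-responsive lipogenic factor ChREBP, by -0.47 ± 0.11 (adjusted p = 0.112 by limma). Of 16 factors tested in a list labelled anti-adipogenic 0 were called and 5 were higher in HH at an unadjusted p under 0.05, namely Gata2, Id2, Klf2, Klf3 and Id3. Gata2, which represses Pparg in cultured preadipocytes, differed by 0.56 ± 0.20. The label belongs to the list as a whole, and the role of each gene was not tested. The median of the anti-adipogenic list was 0.09, against -0.02 for all probes. Among 22 of 26 target genes of PPARG and CEBPA that were tested, 4 were lower at an unadjusted p under 0.05 (Agpat2, Retn, Slc2a4 and Plin1) and 0 higher. Agpat2, an acyltransferase of triglyceride synthesis, differed by -0.74 ± 0.16 (adjusted p = 0.0895 by limma). A list of 7 other tested nuclear receptors held further RXRs (Rxrb and Rxrg) and receptors that pair with RXR. The study drew this theme in part from these samples, so it is no independent evidence. Of the 7, 1 was lower (Rxrg, itself an RXR and not a partner, -0.32 ± 0.08). Among 13 coregulators of PPARG 1 was lower (Cited2, -0.25 ± 0.10). The names at an unadjusted p were picked after their values were seen. HH animals 3, 7 and 10, the arrays high in muscle or mural cell genes, are part of these list values, which were not fitted without them. The adipocyte list had a mean log2 intensity of 12.06 in HH and 12.19 in LH, and the skeletal muscle list 8.30 and 6.96. The part of cell content in the list values was not tested.

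By post-weaning diet, Bhlhe40, a clock-linked repressor in the anti-adipogenic list, was the list member called in LH against LL. It read 661, 1033 and 1180.3 units in LH and 1212, 1740 and 2497 in LL, and fell by 0.88 ± 0.14 on the log2 scale (adjusted p = 0.00517 by limma). Averaged over dams, Bhlhe40 fell by 0.72 ± 0.12, Ppargc1b, a coactivator of mitochondrial genes, fell by 0.43 ± 0.12 and Cidea, a lipid droplet protein of thermogenic and white fat, fell by 0.91 ± 0.23. Leptin (Lep) rose by 0.78 ± 0.23, Angptl4, an inhibitor of lipoprotein lipase, by 0.77 ± 0.20 and Hilpda, an inhibitor of lipolysis, by 0.29 ± 0.08, so that 3 of 22 targets rose and 1 fell, against 4.27% and 1.12% of all probes. The median of the targets was 0.37 with all arrays, against 0.03 for all probes, and -0.03 without the low-correlation arrays. In the same comparison markers of other cells rose, namely Thy1 and Pi16 of 7 progenitor genes tested, Pecam1 and Cdh5 of 4 endothelial genes and Cd2 of 4 lymphocyte genes, beside the 4.27% of all probes that rose, of which Pecam1 alone was called without the low-correlation arrays (0.41 ± 0.07). The part of these cells in the other differences was not tested.

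Without those arrays the calls among the 22 targets in the average over dams were 3, Cidea, Slc2a4 and Gpd1, all lower in HF fed animals, where 1.55% of all probes were called lower, and Lep, Angptl4 and Hilpda were not among them. In HH against HL without HL animals 2, 6 and 8, where 1.08% of all probes were called lower, Cidea read 181, 193 and 292 units in HH and 346, 610 and 1950.4 in HL, and fell by 1.88 ± 0.30 on the log2 scale (adjusted p = 0.00294 by limma). Gpd1, the cytosolic glycerol phosphate dehydrogenase, fell by 0.75 ± 0.13 and Slc2a4, the glucose transporter GLUT4, by 0.51 ± 0.12. Mlxipl read 342, 427 and 521 units in HH and 601, 821 and 932 in HL, and fell by 0.91 ± 0.10 (adjusted p = 3.12e-05 by limma), and Ppargc1b fell by 0.72 ± 0.12. These 5 genes were named after their values were seen.

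Some pairs of members varied together, or against each other, between animals of a group. Each animal was set against its group mean on the log2 scale, with the brightest probe of each gene. Pparg thus stands for ILMN_1221060 and Nr2f2 for ILMN_3163196 in these pairs. All 36 pairs of the 9 genes were tested by permuting animals within groups (100000 resamples, two-sided, Benjamini-Hochberg adjusted over 36 pairs). The permutation ignored cages, whose animals are not independent, so its p-values may be too small. Over 40 arrays 18 pairs passed for Pearson's r and for Spearman's rho both, but the 5 low-correlation arrays formed a separate cluster for Pparg, Cebpa and Ebf2, so no pooled r is given for single pairs. Over the other 35 arrays 17 pairs passed for r, 11 for rho and 11 for both. The share among pairs of other probes is not given here, so these counts cannot be called particular to the members. Cebpa and Rxra had r = 0.69 and rho = 0.66 (permutation p = 0.00011 and 9e-05, adjusted 0.00168 and 0.00312), and r = 0.60 without the 2 animals farthest from the Cebpa median. Ebf1 and Klf15 had r = 0.67 and rho = 0.59 (permutation p = 4e-05 and 0.00061, adjusted 0.00144 and 0.00549), and r = 0.65 without the 2 farthest. Pparg and Rxra had r = 0.58 and rho = 0.56 (permutation p = 0.0005 and 0.00106, adjusted 0.0036 and 0.00636), and Pparg and Cebpa r = 0.42 and rho = 0.46 (permutation p = 0.0151 and 0.00881, adjusted 0.0361 and 0.0322), with r = 0.52 and 0.45 without the 2 farthest.

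Nr2f2 ran against Rxra and the brightest Pparg probe. With Pparg it had r = -0.55 and rho = -0.46 (permutation p = 0.00166 and 0.00984, adjusted 0.00783 and 0.0322), and with Rxra r = -0.55 and rho = -0.46 (permutation p = 0.00226 and 0.00972, adjusted 0.00904 and 0.0322). Without the 2 animals farthest on Pparg or on Rxra, a choice that did not use the Nr2f2 values, r was -0.44 for Pparg and -0.38 for Rxra. The Nr2f2 values of HH animals 3 and 7 and HL animal 5, at 228, 263 and 260.1 units, were the 3 highest of that probe. How far r rests on these 3 animals was not tested. With Cebpa r was -0.53 (adjusted permutation p = 0.0151) and rho -0.41 (adjusted permutation p = 0.0633), so this pair passed for r only. Zfp423 and Klf15 also ran against each other, with r = -0.51 and rho = -0.56 (permutation p = 0.00174 and 0.00097, adjusted 0.00783 and 0.00636), and r = -0.54 without the 2 farthest.

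**Figure D4:**
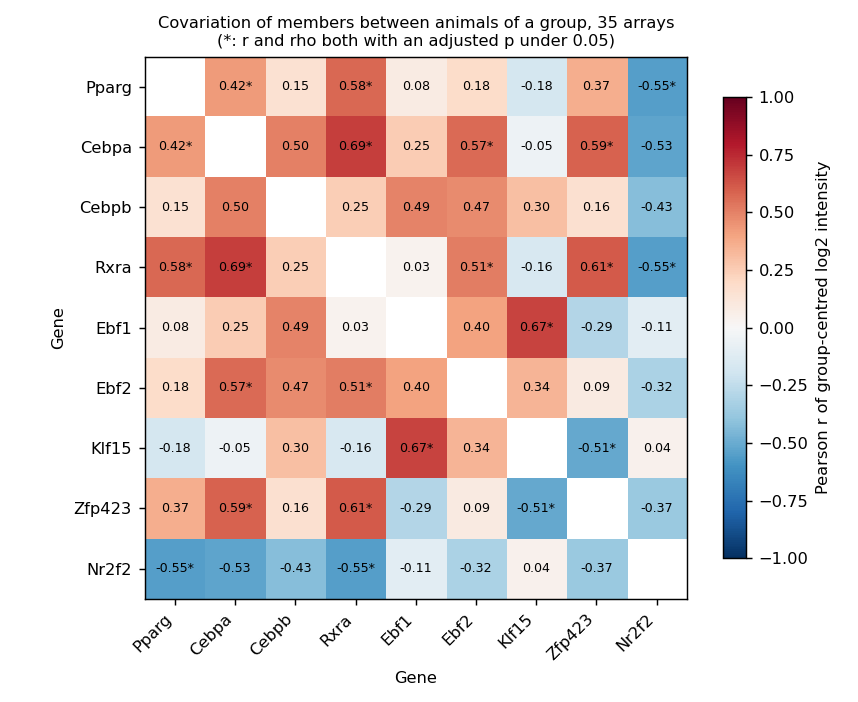
Pearson r of group-centred log2 intensity between the brightest probes of the 9 measured genes over the 35 arrays left without the low-correlation arrays, with a star where r and rho both passed an adjusted p of 0.05. The value for Cebpa and Rxra is 0.69, and the Nr2f2 values with Pparg and Rxra are both -0.55.

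The probes of a gene were not interchangeable for Pparg. Over the 35 arrays ILMN_1221594 and ILMN_1221893 had r = 0.87, while ILMN_1221060, the brightest, had r = 0.09 with ILMN_1221594 and 0.41 with ILMN_1221893. Both Ebf2 probes had r = 0.87, both Zfp423 probes 0.83 and both tested Nr2f2 probes 0.68 (rho = 0.36), each given as a description with no test. The correlations of Pparg with other genes are those of ILMN_1221060 only, and whether the other Pparg probes share them was not tested. The sequences of the probes were not used here, and which Pparg transcripts each probe detects was not tested.

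**Figure D5:**
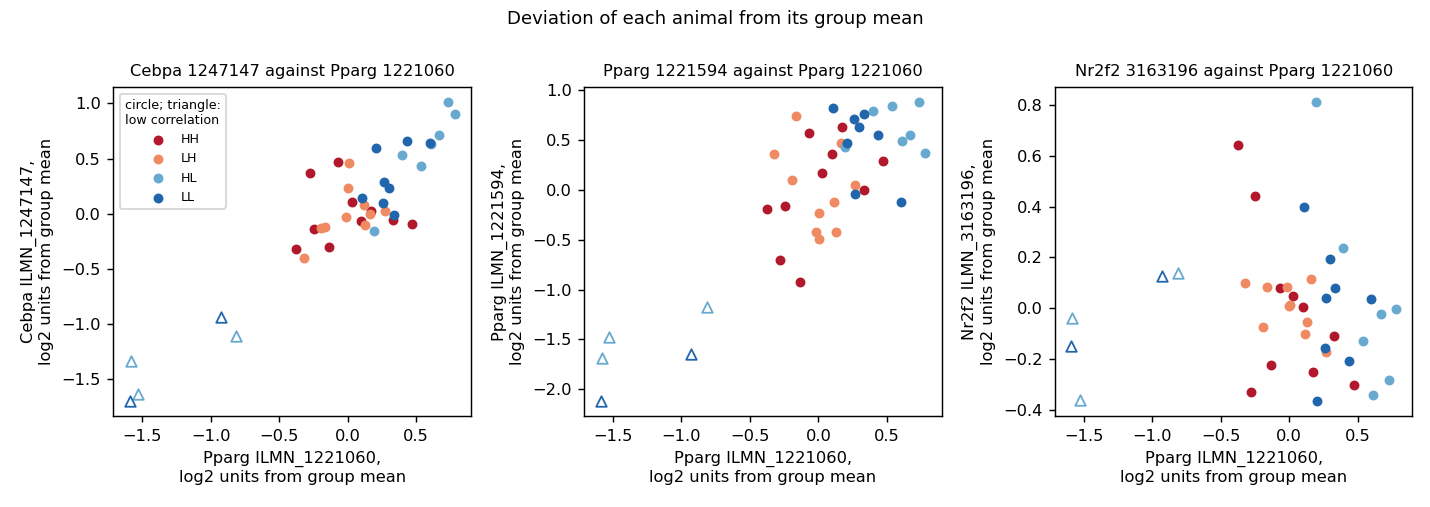
Deviation of each animal from its group mean in log2 units for Cebpa, for Pparg ILMN_1221594 and for Nr2f2 ILMN_3163196 (vertical axes) against Pparg ILMN_1221060 (horizontal axes), with circles for 35 arrays and open triangles for the 5 low-correlation arrays. The triangles form a cluster of their own at the left, and among the circles ILMN_1221594 has r = 0.09 with ILMN_1221060.

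Across the array, the genes most like each member over 40 arrays were Fsd2 and Trf for Pparg (r = 0.97 and 0.96, or 0.77 and 0.71 over 35 arrays), Adhfe1 and Fcgrt for Cebpa (0.97 and 0.96, or 0.81 and 0.80) and Blcap and Tspo for Ebf2 (0.94 for both, or 0.72 and 0.70). Ebf1 was most like Fxyd1 and Ywhab (0.93 and 0.92, or 0.83 and 0.79), Klf15 like Pon3 and Kcna5 (0.87 for both, or 0.79 for both) and Rxra like Trafd1 and Vamp5 (0.89 and 0.87, or 0.81 for both). Cebpb was most like Pip4k2b and Nde1 (0.79 and 0.77, or 0.62 and 0.58) and Zfp423 like Chrac1 and Mzt2 (0.89 for both, or 0.76 and 0.81). Nr2f2 was most like Gata2 and Fam167a (0.75 and 0.70, or 0.80 and 0.76). Ranked over the 35 arrays, the first gene was another for all 9 members, namely Cog4 for Pparg (0.77), Epb41l1 for Cebpa (0.84), Klf2 for Cebpb (0.77), Rbms2 for Rxra (0.89), Faim for Ebf1 (0.86), Jam2 for Ebf2 (0.83), Eif2d for Klf15 (0.82), Zfp763 for Zfp423 (0.85) and Rbfox3 for Nr2f2 (0.80), and Gata2 ranked second for Nr2f2. The 35-array genes were named after their values were seen. Each r is a highest value among all named probes, given as a description with no test, and the 40-array values include the separate cluster.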

How the data were processed

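Gonadal white adipose tissue of 40 mice was measured with 1 array each. The authors deposited intensity values on a linear scale, quantile-normalized over the 40 arrays (BeadStudio is named in the submitters' processing notes, with no version), and log2 was taken of the deposited values as they stood. Genes came from the platform annotation (23978 of 25697 probes had a symbol). Background was the 95th percentile of 1305 olfactory and vomeronasal receptor probes, 78.1 to 94.3 units, and array medians were 98.7 to 99.1 units. The number of arrays limits the precision. Pairwise comparisons were fitted on their 20 arrays, and the interaction and averages on all 40, with limma 3.58.1 (lmFit, eBayes with an intensity trend, R 4.3.3), two-sided, called at a Benjamini-Hochberg adjusted p under 0.05. The study's methods name a Bayesian framework with a variance that depends on expression. Fits and permutations ignored cages, so p-values may be too small where cages differ (consensus correlation 0.168 in HH against LH). Low-correlation arrays lay over 3 scaled median absolute deviations below the median of 0.951. Named were all members, up to 4 called genes of each list, and the 2 genes most like each member. The members and lists were chosen with earlier results of these data known. Alternatives covered filters, background, offset, centring, variance, weights, cages and arrays left out. No pair of arrays held identical values. Python 3.11.15 was used for correlations and plots.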

Additional observations from a re-analysis of the deposited data

Results flagged for a closer look

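In 6 of 56 sets of 10 values (14 probes in 4 groups) the highest or the lowest animal was far from the others on the log2 scale (a large gap against the range by Dixon's 95% limit, which chance gives in about 1 in 20 sets). Zfp423 was high in LL animal 4 at both probes, at 307 units (ILMN_3131693) and 279 units (ILMN_2469366), and this is a low-correlation array whose testis genes had a mean log2 intensity of 13.4. Nr2f2 was high in HL animal 5 at ILMN_3163196 and ILMN_3076625, with 260.1 and 209 units, and in HH animal 7 at ILMN_3076625, with 229 units. Ebf1 ILMN_2707452 was low in HH animal 10, with 213 units, and that array had a mean log2 intensity of 13.5 in the skeletal muscle list.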

How the results depend on the processing

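Of 150 alternatives over the 7 comparisons, 2 called a member. Of these, 1 was HH against LH without LH cage 14 (0 to 1 member probes over the cages left out, Pparg ILMN_1221060 at -0.48), where 116 of 14248 probes were called, against 0 with all cages. The other was the interaction with array weights (1 member probe, Zfp423 ILMN_3131693 at -0.38, adjusted p = 0.0431 by limma), where 1905 of 14248 probes were called, against 0 without weights. Over all probes array weights called 157 in HH against LH, 297 in LH against LL and 601 in HH against HL, against 0, 31 and 73 without weights, and leaving out the low-correlation arrays called 60 in LH against LL and 194 in HH against HL. In HL against LL the sign turned with array weights for Rxra ILMN_2741479 (0.0073), Zfp423 ILMN_3131693 (0.11) and Zfp423 ILMN_2469366 (0.11). In LH against LL the sign turned with array weights for Pparg ILMN_1221594 (-0.29), Cebpa ILMN_1247147 (-0.030), Ebf1 ILMN_2707452 (-0.18), Ebf2 ILMN_2883606 (-0.17) and Zfp423 ILMN_2469366 (0.16). In HH against HL the sign turned with array weights for Pparg ILMN_1221060 (-0.13), Pparg ILMN_1221893 (-0.11), Cebpa ILMN_1247147 (-0.25), Cebpb ILMN_2756435 (-0.031), Rxra ILMN_2741479 (-0.037), Ebf2 ILMN_2883606 (-0.044), Ebf2 ILMN_1251248 (-0.15) and Klf15 ILMN_1235255 (-0.033). In the interaction the sign turned with array weights for Cebpb ILMN_2756435 (-0.14) and Rxra ILMN_2741479 (-0.11). In the post-weaning average the sign turned with array weights for Pparg ILMN_1221594 (-0.074), Pparg ILMN_1221893 (-0.038), Cebpa ILMN_1247147 (-0.14), Ebf1 ILMN_2707452 (-0.045), Ebf2 ILMN_2883606 (-0.12), Ebf2 ILMN_1251248 (-0.059) and Klf15 ILMN_1235255 (-0.21). In LH against LL the sign turned without the low-correlation arrays for Pparg ILMN_1221594 (-0.26), Cebpa ILMN_1247147 (-0.078), Ebf1 ILMN_2707452 (-0.15) and Ebf2 ILMN_2883606 (-0.18). In HH against HL the sign turned without the low-correlation arrays for Pparg ILMN_1221060 (-0.27), Pparg ILMN_1221594 (-0.067), Pparg ILMN_1221893 (-0.32), Cebpa ILMN_1247147 (-0.22), Ebf2 ILMN_1251248 (-0.059) and Klf15 ILMN_1235255 (-0.070). In the post-weaning average the sign turned without the low-correlation arrays for Pparg ILMN_1221060 (-0.069), Pparg ILMN_1221594 (-0.16), Pparg ILMN_1221893 (-0.15), Cebpa ILMN_1247147 (-0.15), Ebf1 ILMN_2707452 (-0.032), Ebf2 ILMN_2883606 (-0.082), Ebf2 ILMN_1251248 (-0.017) and Klf15 ILMN_1235255 (-0.18). In HH against LH the sign turned without HH animals 3, 7 and 10 for Cebpa ILMN_1247147 (0.070), Ebf2 ILMN_1251248 (0.049) and Nr2f2 ILMN_3076625 (-0.0016). With each cage left out in turn, the range was -0.087 to 0.18 for Ebf1 and -0.12 to 0.22 for Klf15 in HH against LH, and -0.10 to 0.14 for Rxra, -0.14 to 0.10 for Zfp423 ILMN_3131693 and -0.21 to 0.13 for Klf15 in LH against LL, with the turned signs without LH cage 9 (Ebf1, Klf15) or LL cage 8 (Rxra, Zfp423). The turned signs given here are the 51 that moved by over 1 SE of the value with all arrays, and 86 others turned by less and are not given, of 2046 values. No value with a turned sign passed the test, and the causes were not tested. No paired analysis was possible because replicate numbers name animals in the order of the records and pair none. The 5 cages that hold both offspring diets were fitted as a fixed block, which called 0 member probes and moved Pparg ILMN_1221060 to 0.87 in HH against HL, 0.56 in LH against LL and 0.73 in the post-weaning average. These cages hold 4 of the 5 low-correlation arrays, all but LL animal 1. Dim probes (Zfp423, Nr2f2) lie near background, where folds are understated.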
